A study of Rattus norvegicus with 12 samples.

Results

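miR-148a, miR-148b and miR-152 are 3 microRNAs (miRNAs) made from separate genes that carry the same seed. They were taken from a qRT-PCR panel by name, as every assay whose name is 1 of the 3 after the species prefix and any -3p or -5p arm are dropped. This gave 4 assays of the 375 miRNA assays on the panel: miR-148a, miR-148b and miR-152, each as a mouse-named assay, and miR-148b-5p as a rat-named assay. No arm of a member had both a mouse and a rat assay. The family was picked with its values at all ages already known, so these values are given as a description. A limma fit over the whole panel is given as background only, and its calls of members are not used as evidence about the family.

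The samples were total RNA of parotid acinar cells, the cells that secrete saliva proteins, isolated from sections by laser capture microdissection (LCM). They came from albino Sprague Dawley rats, without treatment, at embryonic day 20 (E20) and at postnatal days 5, 15 and 25 (P5, P15, P25). There were 3 biological samples at each age, 12 in all, and per the study's methods the 3 of an age were of separate litters. Each sample joins lysates of several capture caps of the same day, so a value is an average over many cells. In such bulk RNA, a change in the share of cells that express a miRNA and a change in its amount per cell cannot be told apart.

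A miRNA finds its target mRNAs mainly through its seed, bases 2 to 8 counted from its 5′ end, which pair with sites in the mRNA and lower its stability or translation. Members of a seed family can therefore act on overlapping sets of mRNAs, even when their genes are expressed at different times or in different cells. miR-148a is known as an abundant miRNA of liver, pancreas and milk, and the family is known for repressing the DNA methyltransferase Dnmt1.

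The mature sequences are shown because the comparison turns on them: the seed, in capitals, is identical in all 3, and the bases after it tell the members apart. They are rat RefSeq sequences with GRCr8 positions; the sequences of the panel's own primers are not given in the sources used here.
miR-148a-3p: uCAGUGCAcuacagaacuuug
miR-148b-3p: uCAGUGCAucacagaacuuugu
miR-152-3p: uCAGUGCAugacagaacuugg

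Of the 693 mature rat names in the RefSeq table, only these 3 carried this seed. Counted from the 5′ end, with the first-named member's base first, miR-148a and miR-148b differed at 2 of the 21 shared positions, C9U and U10C. miR-148a and miR-152 differed at 3 (C9U, U10G and U20G), and miR-148b and miR-152 at 2 (C10G and U20G). How far the assays cross-detect such close sequences was not tested.

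The mature sequences lie at chr4:81664447-81664467 on the minus strand for miR-148a, chr7:136299930-136299951 on the plus strand for miR-148b and chr10:82329435-82329455 on the plus strand for miR-152. Mir148b lies within the bounds of Copz1 and Mir152 within those of Copz2. These genes encode zeta subunits of the coatomer, the coat of vesicles that move between Golgi and endoplasmic reticulum. Mir148a lies outside annotated protein-coding genes, 71.9 kb from the nearest, the uncharacterized LOC102549423.

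The threshold cycle, CT, is the cycle where a well's fluorescence passes a set level, so a lower CT means more template, about 2 times more per cycle. Levels were set against the array: the median CT over its detected miRNA assays, less the assay's own CT, is a log2 scale on which 0 is the array's median assay. The count of detected miRNA assays stands for the depth; it ran from 282 to 306 at E20, 224 to 307 at P5, 179 to 273 at P15 and 202 to 223 at P25. P15 replicate 1 stood apart with 179, and means at P15 are given with and without it. The interplate calibrator, an added control template, averaged between 18.3 and 19.0 cycles in all 12 samples.

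The labelled cell type was checked against miRNA markers. All 9 assays of the 7 epithelial markers (the miR-200 family, miR-203 and miR-205) had a CT in every sample, and their summed level lay between 6.93 and 8.35 at E20, 7.43 and 8.14 at P5, 6.42 and 9.72 at P15, and 8.10 and 9.07 at P25. Markers of fibroblasts and smooth muscle (6 assays of 5 markers) were also detected in every sample, at a summed level of 5.79 to 6.36 at E20, 6.93 to 8.10 at P5, 5.76 to 8.24 at P15 and 6.51 to 7.41 at P25. All P5 and P25 samples thus lay above all E20 samples on this summed level, as they did for miR-148a. The same held for the secretory marker miR-375 in the samples where it had a CT. Over assays measured in all samples compared, ranges did not overlap in 19.3% for E20 and P5 and 39.1% for E20 and P25. The sum of the fibroblast and smooth muscle list does not mean that every assay on it rose. The mean level of miR-199a-3p, which is on it, was 3.86 at E20, 3.11 at P5 and 1.79 at P25. The paper reports that miR-214, also on the list, decreased. Whether the remaining assays of the list moved alike was not tested. The endothelial miR-126-3p lay between 2.56 and 3.93 at E20, 3.07 and 4.33 at P5, 1.83 and 4.74 at P15, and 2.71 and 4.88 at P25. Leukocyte markers had a CT in 6 of 6 assays at E20 and in 3 to 5 at P25, with summed levels of 1.98 to 3.00 and 1.65 to 3.24. The striated muscle list, miR-1 among it, lay between 4.36 and 6.23 at E20 and between 0.17 and 1.88 at P25, where 2 or 3 of its 5 assays had a CT. The liver marker miR-122 gave a CT in at most 1 sample of an age. The part of these other cells in the family's levels was not tested.

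miR-148a was the member that differed most between ages. At E20 its level was 3.69, 2.52 and 2.48 in the 3 samples, and at P5 it was 5.07, 6.09 and 5.32. At P15 it was 4.84, 6.68 and 6.56, and at P25 it was 7.73, 8.07 and 8.50. Every postnatal sample lay above every E20 sample, every P25 sample lay above every sample of the other ages, and P5 and P15 overlapped.

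The means of miR-148a were 2.90 ± 0.68, 5.49 ± 0.53, 6.03 ± 1.03 and 8.10 ± 0.38 in order of age (SD, n = 3 each). Without P15 replicate 1, the lowest of its age, the P15 mean was 6.62 ± 0.08 (SD, n = 2). P25 exceeded E20 by 5.20 on the log2 scale (standard error 0.45), a fold difference of 36.8. Whether the course was stepwise or gradual was not tested. By interval, P5 exceeded E20 by 2.59 (standard error 0.50, 6.04-fold), and P25 exceeded P15 by 2.07 (standard error 0.64, 4.21-fold). Between P5 and P15 the difference was 0.53 (standard error 0.67). It was 0.72 (standard error 0.22) with the median of assays detected in all samples as reference, and 0.42 (standard error 0.26) with their mean. On the array median, leaving out P15 replicate 1 raised the difference between P5 and P15 to 1.13. It lowered that between P15 and P25 to 1.48.

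Same-numbered postnatal samples deviated together over the panel, so the differences were also taken within replicate numbers. This pairing rests on values alone, and no label says what these samples share. Replicate 1 had the fewest detected assays at P5, P15 and P25 (224, 179 and 202). The part of this depth in the shared deviations was not tested. For miR-148a, P15 minus P5 was -0.24, 0.60 and 1.24 in replicates 1, 2 and 3 (standard error of the mean 0.43), without a shared sign on the array median. On that scale the median of assays detected in all samples lay at 1.08 in P15 replicate 1. It lay between 1.83 and 2.56 in the other samples, so the sign in replicate 1 depends on the reference. P25 minus P15 was 2.90, 1.39 and 1.94 (standard error 0.44), and P25 minus P5 was 2.66, 1.99 and 3.18 (standard error 0.35). Both of the latter were above 0 in 3 of 3 pairs, as any pairing would give, since every P25 value lay above every P5 and P15 value.

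miR-152, the member inside Copz2, differed less between ages. Its level was 2.32, 2.31 and 2.75 at E20, 1.75, 3.57 and 2.63 at P5, and 0.58, 2.74 and 3.78 at P15. At P25 it was 3.13, 3.79 and 4.51. All 3 values at P25 exceeded all 3 at E20 but overlapped P5 and P15, and E20, P5 and P15 overlapped one another.

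The means of miR-152 were 2.46 ± 0.25, 2.65 ± 0.91, 2.37 ± 1.63 and 3.81 ± 0.69 in order of age (SD, n = 3 each). Without P15 replicate 1, which was at 0.58, the P15 mean was 3.26 ± 0.73 (SD, n = 2), and its sample values, 2.74 and 3.78, still overlapped those of P25. P25 exceeded E20 by 1.35 (standard error 0.42), a 2.54-fold difference. Within replicate numbers miR-152 was higher at P25 than at P15 in 3 of 3 pairs, by 2.55, 1.05 and 0.73 (mean 1.44, standard error 0.56). It was also higher at P25 than at P5 in 3 of 3 pairs, by 1.38, 0.22 and 1.88 (mean 1.16, standard error 0.49), and higher at P15 than at P5 in 1 of 3. Unpaired, the standard errors were 1.02 for P15 to P25 and 0.66 for P5 to P25. The pairing rests on values alone, and the 2.55 involves P15 replicate 1. How many of all assays reached 3 of 3 pairs was not counted. The direction from E20 to P25 held under every reference tried that adjusts for the array, and turned to -0.38 with CT values as deposited, where the median of all tested assays was -1.58.

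miR-148b, the member inside Copz1, was not higher after birth. Its level was 0.95, 0.74 and 1.03 at E20, and -0.03, 1.45 and 0.07 at P5. At P15 the samples with a CT were at 0.43 and -1.18, and P15 replicate 1 gave none. At P25 the samples were at -1.12, 0.93 and 0.45. The P5 and P25 samples overlapped those of E20, while the 2 P15 values lay below all E20 values.

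The means of miR-148b were 0.91 ± 0.15, 0.50 ± 0.83, -0.37 ± 1.14 and 0.08 ± 1.07 in order of age (SD, n = 3 each, but n = 2 at P15). P25 minus E20 was -0.82 (standard error 0.62). Within replicate numbers P25 was above P5 in 1 of 3 pairs, and in the 2 pairs with a P15 value that value was the lowest of the postnatal ages. Set against small nuclear RNAs in place of the array median, the sign turned, to 0.18, where the median of all tested assays was 1.15. The SD was wider at each postnatal age than at E20. The CT of miR-148b was between 30.98 and 31.45 at E20 and between 32.8 and 35.3 at P25.

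miR-148b-5p, cut from the other arm of the same hairpin, gave no CT in any of the 12 samples. A well without a CT gives no calibrated bound on the amount of template, since the efficiency of the assay is unknown.

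**Figure D1:**
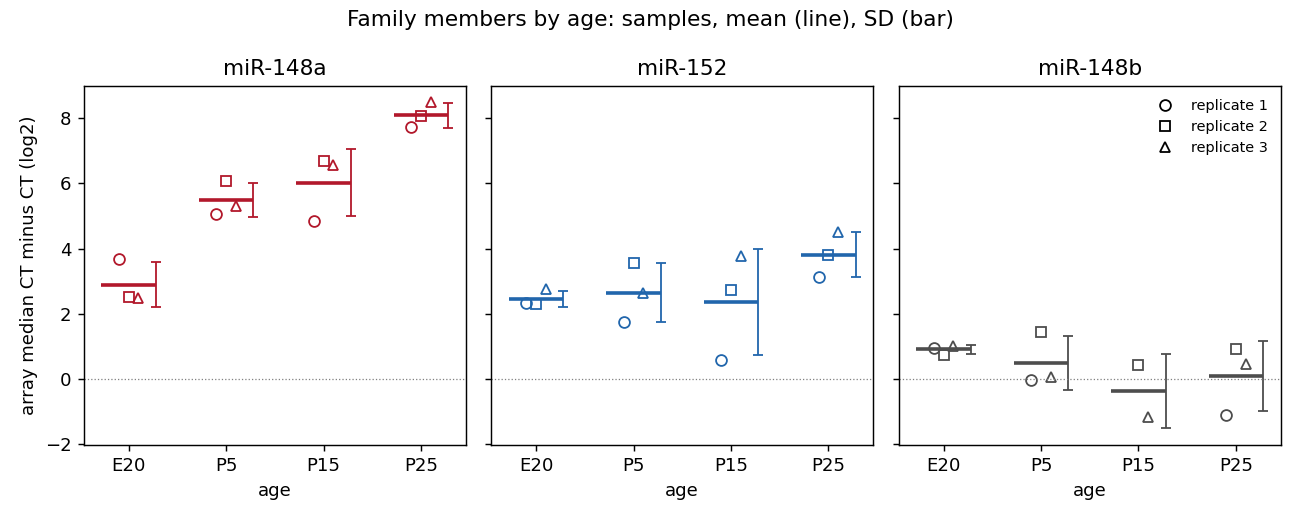
Level of each member (array median CT minus CT, log2) by age. Symbols are the samples, thick lines the mean and thin bars the SD. The mean of miR-148a goes from 2.90 at E20 to 8.10 at P25 and that of miR-152 from 2.46 to 3.81. The age means of miR-148b lie between -0.37 and 0.91, and its samples between -1.18 and 1.45.

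Among all assays, 192 had a CT in at least 2 of 3 samples at every age and entered a common limma fit; 3 of the 4 family assays did, and miR-148b-5p did not. Between E20 and P25 the fit called 23 of 192 assays (12.0%) at an adjusted p-value under 0.05, 8 higher at P25 (4.17%) and 15 lower (7.81%). Of the family, 1 of 3 was called, miR-148a, which was higher. Across the 4 ages the fit called 15 of 192 assays (7.81%), and of the family again only miR-148a. Neither count is read as evidence about the family, since this contrast was known when the family was picked.

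By size, the change of miR-148a from E20 to P25 was number 2 of the 192, that of miR-152 number 49 and that of miR-148b number 133, counted from the largest increase. The median of all 192 was 0.15. Relative to it the changes were 5.06 for miR-148a, 1.20 for miR-152 and -0.97 for miR-148b, and these do not depend on the reference subtracted from the array. The median of the 3 members was 1.35. The ranges of E20 and P25 did not overlap for miR-148a and miR-152, 2 of the 3 members measured in all 6 samples, against 39.1% of the 156 assays so measured.

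In the other comparisons of ages no member was called in this fit. Without P15 replicate 1, miR-148a was called higher from E20 to P15 and from P5 to P25. The same 2 calls were made with the mean of assays detected in all samples as reference. With their median, miR-148a was also called from E20 to P5. Over all settings it was called from E20 to P15 in 5 of 24, from P5 to P25 in 3 of 24 and from E20 to P5 in 1 of 24. Between P5 and P25 the fit called 6 of 192 assays (3.12%), 3 in each direction (1.56% each). It called 0 of 192 in the remaining 4 comparisons, where an unadjusted p-value under 0.05 was reached by 15 assays from E20 to P5, 40 from E20 to P15, 12 from P5 to P15 and 17 from P15 to P25. These counts of calls moved with single libraries: from P5 to P25 they were 11 without P15 replicate 1, 2 without P5 replicate 2 and 0 without E20 replicate 1 or 3, P5 replicate 3, or P25 replicate 1 or 2, and from E20 to P15 they were 5 without P15 replicate 1. The sample ranges of miR-148a did not overlap in 5 of the 6 comparisons, all but P5 with P15. Over assays measured in all 6 samples compared, the share without overlap was 19.3% for E20 and P5, 24.0% for E20 and P15, 8.03% for P5 and P15, 21.7% for P5 and P25 and 8.8% for P15 and P25. miR-152 overlapped in all of these.

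The differences between members need no array reference, because they are taken between wells of the same sample. They are given as differences in level, the CT of the second-named member less the CT of the first-named, in cycles, so that a higher value means relatively more of the first-named. Since primer efficiency is unknown for each assay, the difference at 1 age is not a ratio of amounts; how it differs between ages is what the data show.

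miR-148a minus miR-148b was 2.73, 1.79 and 1.46 cycles at E20 and 5.10, 4.63 and 5.25 at P5. It was 6.25 and 7.74 in the 2 P15 samples with both, and 8.85, 7.15 and 8.05 at P25. E20, P5 and the later ages did not overlap one another, while P15 and P25 did. From E20 to P25 the difference widened by 6.02 cycles (standard error 0.62), 65.1-fold at a doubling per cycle. By P5 it had widened by 3.00 (standard error 0.42).

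miR-148a minus miR-152 was 1.37, 0.21 and -0.27 cycles at E20, so the sign was not shared by the E20 samples. It was 3.32, 2.52 and 2.69 at P5, 4.26, 3.94 and 2.79 at P15, and 4.60, 4.28 and 3.99 at P25. All postnatal values lay above all E20 values, and P15 overlapped both its neighbours. The widening from E20 to P25 was 3.86 cycles (standard error 0.52, 14.5-fold). P15 replicate 1, low for both levels, had the highest P15 value here, 4.26.

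miR-152 minus miR-148b was 1.37, 1.57 and 1.73 cycles at E20, 1.78, 2.11 and 2.55 at P5, 2.31 and 4.96 at P15, and 4.25, 2.86 and 4.05 at P25. The E20 values lay below all others, and P15 overlapped P5 and P25. From E20 to P25 it widened by 2.17 cycles (standard error 0.45, 4.49-fold). From the largest to the smallest change from E20 to P25 the members stood as miR-148a, miR-152 and miR-148b, an order known when the family was picked.

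**Figure D2:**
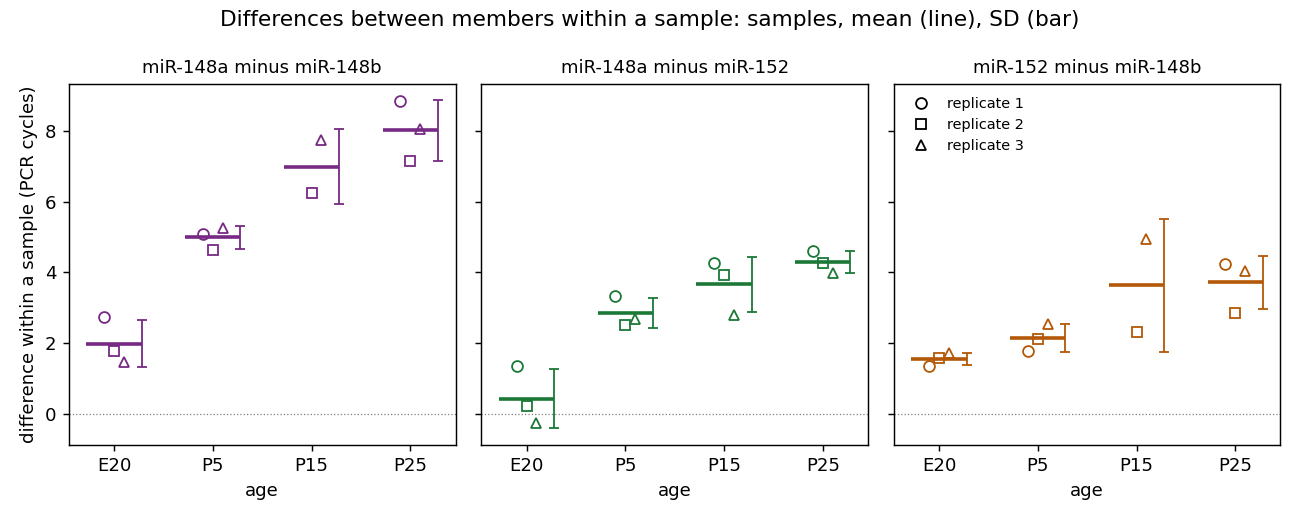
Difference between members within a sample, in PCR cycles, by age. Symbols are the samples, thick lines the mean and thin bars the SD; all 3 differences are higher at P25 than at E20, by 6.02 cycles for miR-148a minus miR-148b, 3.86 for miR-148a minus miR-152 and 2.17 for miR-152 minus miR-148b.

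If all 3 assays amplified alike, an assumption the data cannot check, the family's template would divide as follows in the 11 samples with all 3. miR-148a would be 65.0%, 46.5% and 38.9% of the sum at E20, and 88.6%, 82.3% and 84.7% at P5. It would be 92.7% and 87.0% at P15 and 95.9%, 94.5% and 93.8% at P25. miR-152 would go from 37.4% ± 11.1 (SD, n = 3) to 4.90% ± 0.974 (SD, n = 3) between E20 and P25, and miR-148b from 12.5% ± 2.36 (SD, n = 3) to 0.410% ± 0.235 (SD, n = 3). The summed level of the seed would go from 3.93 ± 0.35 (SD, n = 3) to 8.18 ± 0.40 (SD, n = 3), a difference of 4.25 (standard error 0.31) on the log2 scale. This is less than the 5.20 of miR-148a alone.

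The rank of an assay by CT on its own array, 1 for the lowest CT, also needs no reference. It depends on primer efficiency, so it is read across ages and not as an order of amounts. miR-148a ranked 37, 63 and 56 at E20, 7, 6 and 6 at P5, 5, 4 and 12 at P15, and 2, 1 and 1 at P25. In the P25 sample where it ranked 2, let-7b was first, at a CT of 26.39 against 26.44. miR-152 ranked between 48 and 79 at E20 and between 30 and 42 at P25. miR-148b ranked between 100 and 126 at E20 and between 89 and 128 at P25. Only miR-148a reached the top of the panel.

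**Figure D3:**
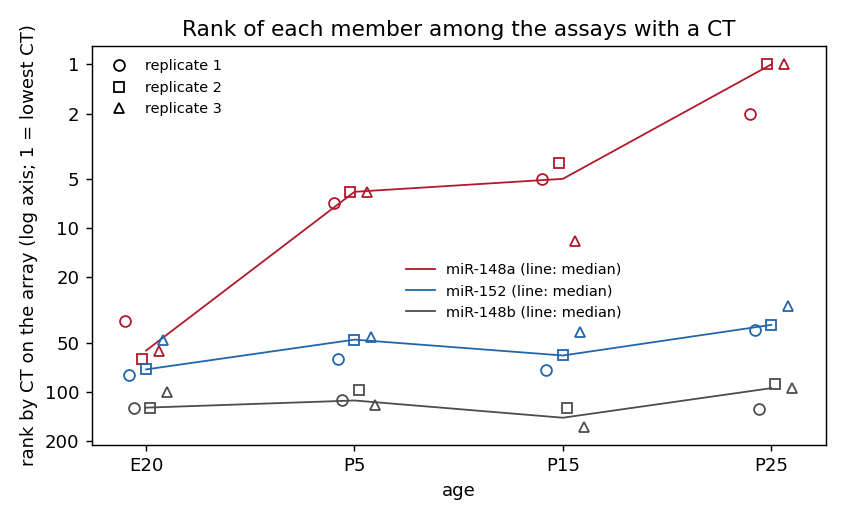
Rank of each member by CT among the miRNA assays with a CT on the same array (log axis, 1 for the lowest CT) by age. Symbols are the samples and lines join the medians; miR-148a goes from ranks 37 to 63 at E20 to ranks 1 and 2 at P25, while miR-148b stays between 89 and 163.

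To set this divergence beside other families, panel assays were grouped by seed with rat RefSeq sequences, the arm of a bare name being assigned by hand. 23 groups had at least 2 names measured in 2 or more samples at both E20 and P25, 65 names in all. The range of the change from E20 to P25 within the miR-148 and miR-152 group was 6.02, the widest of the 23. The family was picked with these values known, so this place is a description only. In the other groups it ran from 0.07 to 4.19, with a median of 1.03. Names without a RefSeq sequence were left out, so the range of some other groups may be understated. For example, miR-301a changed by -5.04, while the names kept in the miR-130 and miR-301 group ran from -3.84 to -2.95. All 3 names of the miR-148 and miR-152 group had a sequence. The next widest were the group of miR-221 and miR-222, at 4.19, and that of miR-15 and miR-16, at 3.76. In the former the changes ran from -1.05 to 3.14, and in the latter, over 5 names, from -1.24 to 2.52. With a CT above 35 taken as not detected the family's range was 5.14 and second of 16 groups, after the miR-15 and miR-16 group at 5.30. Groups with more members have more room for a wide range, and the miR-148 and miR-152 group has 3 against up to 9 in the let-7 group, whose range was 3.44.

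**Figure D4:**
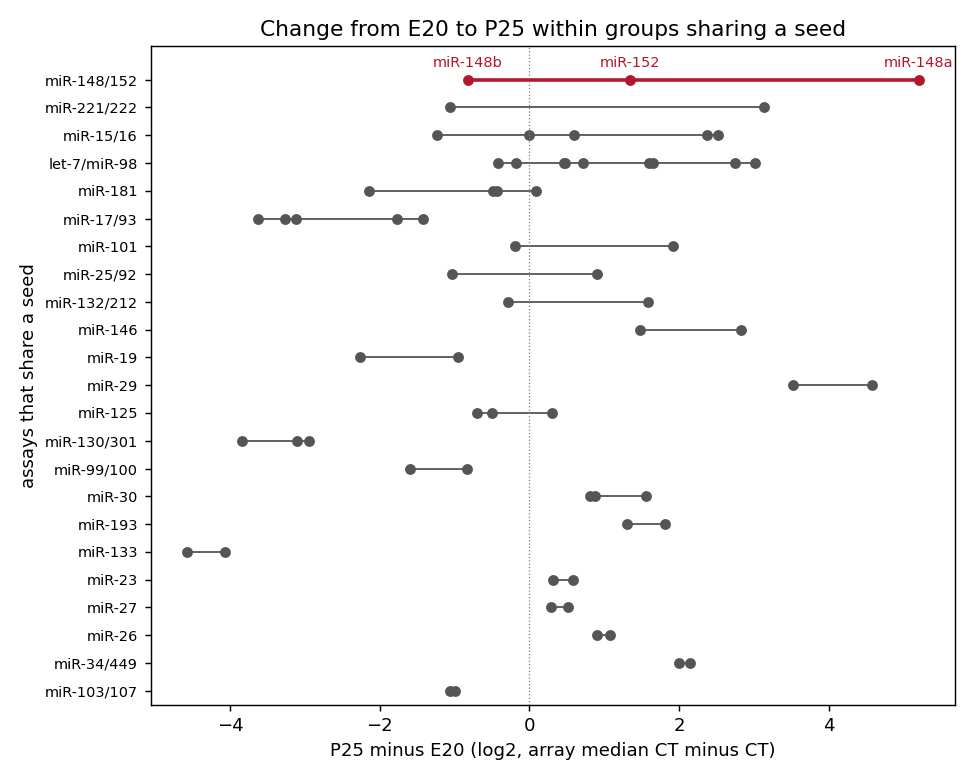
Change from E20 to P25 (log2, array median CT minus CT) of each miRNA, in rows of miRNAs that share a seed, ordered by their range. Points are miRNAs and lines span the range of a group; the miR-148 and miR-152 group, in red, spans from -0.82 to 5.20, and the other 22 groups span 0.07 to 4.19.

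Which assays followed a course like each member's was measured by the root-mean-square difference over the samples, after each assay was centred on its own mean. It was compared over the 118 other assays with a CT in all 12 samples. This leaves out assays that lacked a CT in some samples, such as miR-375 and miR-29c. Closest to miR-148a were let-7b (1.06 on the log2 scale), let-7c (1.10) and miR-200a (1.10). Let-7b was 3.02 higher at P25 than at E20, let-7c 2.75 and miR-200a 2.60, all smaller differences than that of miR-148a. Closest to miR-152 were miR-23a (0.49), miR-27b (0.50) and miR-125b-5p (0.51), whose changes were 0.32, 0.51 and 0.31. Closest to miR-148b, over the 11 samples with its CT, were miR-107 (0.62), miR-199a-3p (0.65) and miR-15a (0.76), with changes of -0.99, -2.08 and 0.12. Of these neighbours, miR-200a is also on the epithelial and miR-199a-3p on the fibroblast marker list. These samples share an array reference and age, so likeness describes the course only.

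The members were not each other's closest profiles. miR-148a and miR-148b differed by 2.42, with 89 of the 118 assays closer to miR-148a and 116 closer to miR-148b. miR-148a and miR-152 differed by 1.55, with 15 assays closer to miR-148a and 77 closer to miR-152. miR-152 and miR-148b differed by 1.16, with 47 assays closer to miR-152 and 40 closer to miR-148b.

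The miR-130 and miR-301 group carries a seed that shares a run of 6 bases with that of miR-148 and miR-152, shifted by 1 position. The run is bases 3 to 8 in miR-148 and miR-152 and bases 2 to 7 in miR-130 and miR-301. The 2 groups' 7-base sites, read as DNA, are TGCACTG and TTGCACT. The sequences held for miR-130 and miR-301 are shown for the shift, with the seed in capitals.
miR-130a-3p: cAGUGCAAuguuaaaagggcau
miR-130b-3p: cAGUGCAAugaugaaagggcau
miR-301b-3p: cAGUGCAAugguauugucaaagc

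All 4 miR-130 and miR-301 assays had lower means at P25 than at E20, the direction opposite to that of miR-148a. The mean of miR-130a went from 1.48 ± 0.53 to -1.47 ± 0.25 (SD, n = 3 each). miR-301b averaged 1.67 ± 0.27 (SD, n = 3) at E20 and stood at -2.21 and -0.66 in the 2 P25 samples with a CT. The mean of miR-301a went from 2.87 ± 0.45 to -2.17 ± 2.40 (SD, n = 3 each). miR-130b averaged -1.13 ± 0.55 (SD, n = 3) at E20 and stood at -5.66 and -4.26 in 2 P25 samples, and it did not enter the fit. The 3 that did were among the 15 assays called lower (7.81% of those tested). This group too was set beside the family with its values known.

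miR-375, miR-29c and miR-200c were drawn beside miR-148 in the published network, a choice made on these same samples, so their direction is not independent evidence. The limma fit called miR-375 and miR-29c higher at P25 than at E20, and neither assay of miR-200c. In that fit, with missing wells imputed, the changes were 8.09 for miR-375, 3.53 for miR-29c, and 2.75 and 2.03 for the mouse and rat assays of miR-200c. The measured wells of miR-375 averaged -4.06 at E20 (n = 2) and 5.81 at P25 (n = 3), further apart than in the fit. Between E20 and P5, miR-148a differed by 2.59, while the means of miR-29c moved from -2.27 to -2.37 and those of the miR-200c assays from 3.65 to 4.35 and from 4.31 to 4.10. miR-375 went from a mean of -4.06 over 2 samples to -0.58 over 2 samples. Whether these steps differ between the miRNAs was not tested.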

How the data were processed

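Small RNA was measured by SYBR green qRT-PCR on the Exiqon Mouse&Rat panel I, from 1 ng of LCM RNA per sample. The authors deposited threshold cycles (CT) per well, a score on an inverted log scale, without imputation, normalization or pooling; undetermined wells (32.8% of 4500) were read as missing. The deposited array median equals the median over all wells with a CT, controls included, and was used only as an alternative. Samples were assigned to ages from their titles.

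For each array, a CT under 40 counted as detected, and levels are the detected miRNA assays' median CT less each CT. Members' means, SDs and standard errors use measured wells only. The fit over 192 assays, with 122 wells (5.30%) imputed from 10 nearest neighbors, used limma 3.58.1 in R 4.3.3 with 4 age means over 12 samples and Benjamini-Hochberg adjustment. It was tested on simulated data. Figures used matplotlib 3.10.9.

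The members, lists and tests were chosen with earlier results of these data known. Named assays were the members, the 3 closest profiles to each, the 3 seed groups of widest range and the network companions; the miR-130 and miR-301 group and let-7 were added after values were seen. Marker lists covered epithelial, secretory, fibroblast and smooth muscle, endothelial, erythrocyte, leukocyte, striated muscle, nerve and liver miRNAs. Of 102 seed group names, 90 had a RefSeq sequence.

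The ages share replicate numbers. Deviations from the age means correlated over 0.1 in 9 of 9 same-numbered pairs among P5, P15 and P25 (0.126 to 0.563) and in 1 of 9 pairs with E20 (-0.234 to 0.123), so no block was used with E20 and postnatal differences are also given within numbers; the pairing rests on values alone.

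Alternatives covered the array reference, the CT limit, the detection filter, missing wells, amplification per cycle, the replicate block and each sample left out.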

Additional observations from a re-analysis of the deposited data

How the results depend on the processing

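The precision is limited by 3 samples an age and by wells near the detection limit. miR-148a was called between E20 and P25 in 23 of 25 settings, and not with the small nuclear RNAs as reference or without normalization. The small nuclear RNA reference is itself variable: RNU1A1 ran from 17.79 to 34.61 cycles. With it the changes were 6.21 for miR-148a, 2.35 for miR-152 and 0.18 for miR-148b; without normalization they were 3.48, -0.38 and -2.54. With a CT above 35 taken as not detected they were 4.47 for miR-148a and 0.61 for miR-152, the array median then resting on fewer wells, and the range within the family was 5.14. At 1.8 times per cycle miR-148a changed by 4.41, and miR-148a minus miR-148b by 5.11, by construction.

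Leaving out each sample in turn, the change from E20 to P25 ran from 5.00 to 5.60 for miR-148a, from 1.00 to 1.69 for miR-152 and from -1.24 to -0.22 for miR-148b (without P25 replicates 2 and 1). The differences ran from 5.60 to 6.46 (miR-148a minus miR-148b), 3.50 to 4.32 (miR-148a minus miR-152) and 1.90 to 2.60 (miR-152 minus miR-148b).

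The 23 assays called between E20 and P25 became 40 (20 higher, 20 lower) when the reference was the median of assays detected in all samples, and 35 (10 higher, 25 lower) when it was their mean. They became 0 with the small nuclear RNAs, where 1 reached an unadjusted p-value under 0.05. Without normalization they became 26 (1 higher, 25 lower). They became 11 with the CT limit at 35, 6 with assays detected in all samples, 10 with missing wells at 40, and 35 with E20 and P25 alone. Leaving out a sample gave 8 (without P25 replicate 2) to 38 (without P15 replicate 1). The 15 called across ages became 0 with the small nuclear RNAs (1 unadjusted), 0 without normalization (38 unadjusted), 7 and 6 with CT limits of 37 and 35, 7 with assays detected in all samples and 3 with missing wells at 40. Leaving out a sample gave 1 (without E20 replicate 1) to 21 (without P15 replicate 1). From P5 to P25 the 6 calls became 10 and 9 with the median and mean of common assays, 5 with the authors' array median, 4 with assays detected in all samples, 2 with 2 detected replicates at any 1 age, 1 with missing wells at 40, and 0 with CT limits of 37 and 35, the small nuclear RNAs or no normalization; leaving out a sample gave 0 to 11. From E20 to P15 the 0 calls became 6 with the median or mean of common assays or with 2 detected replicates at any 1 age, and leaving out a sample gave 0 to 5. From P15 to P25 they became 3 without P25 replicate 3 and 1 without P15 replicate 1. From E20 to P5 they became 2 without P5 replicate 2 and 1, miR-148a, with the median of common assays. The cause of these shifts was not tested. With the replicate block 32 assays were called between E20 and P25 and 19 across ages; from E20 to P15 it called 11 assays, miR-148a among them, against 0 without the block, and from P5 to P25 it called 9, against 6. The pairing changed no other call and no E20 to P25 change of a family member.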

Other observations

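Of the remaining marker lists, miR-375 as the secretory marker gave a CT in 2 of 3 samples at E20, at levels of -5.40 and -2.71, and lay between 5.44 and 6.51 at P25. The erythrocyte list (miR-451 and miR-144) lay between 0.56 and 2.41 at E20, with 0 to 2 of its 2 assays giving a CT at P25. The nerve list lay between 0.18 and 4.84 at E20 and between -0.10 and 3.78 at P25.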
